A study of Mus musculus with 8 samples.

Results

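The TNF superfamily ligand genes encode small cytokines, most of them made as trimers on the cell surface and some released by proteases, that switch on receptors of the TNF receptor superfamily. The receptors recruit TRAF adaptors and, in most cases, activate NF-kB, and those with a death domain can also start cell death. Lymphocytes are a main source of several of these ligands: lymphotoxins organise lymphoid tissue, and RANKL, the product of Tnfsf11, drives osteoclast formation. Members were the 9 genes Tnfsf11, Tnf, Lta, Ltb, Tnfsf4, Tnfsf8, Tnfsf9, Tnfsf10 and Tnfsf13, taken by symbol from the 32499 genes of the deposited count table. The expression filter kept 12970 genes for testing, of which 6 were members, while Tnf, Tnfsf8 and Tnfsf13 had too few counts. Tnfsf4 passed the filter only through the 2 libraries in which it was high, so its values are given as a description, and counts of members refer to the other 5.

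RNA was sequenced from 8 libraries of mouse pre-B cells, which were derived from C57BL/6 bone marrow and lack the tumour suppressor Arf (Arf-/-) in every group. Cells received a lentivirus and were sorted for GFP: 2 libraries carried the empty vector, 2 carried HA-tagged full-length ZNF384, 2 carried HA-tagged TAF15-ZNF384 and 2 carried HA-tagged TCF3-ZNF384. ZNF384 is a zinc finger transcription factor, and the fusions join it to TAF15 or TCF3 as in human ZNF384-rearranged leukaemia. The design text calls the replicates biological but does not say whether they were separate transductions, so p-values measure the spread between these libraries. The cells are a cultured model in which each ZNF384 protein is added by a virus, and the control groups share the loss of Arf. Each library is a bulk sample, in which fewer cells expressing a gene and less RNA per cell cannot be told apart.

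Total counts ran from 9381954 to 41483660 per library, with the 2 full-length ZNF384 libraries holding the smallest share of counts in 5 abundant non-coding genes (10.9% and 12.5%, against up to 33.2% elsewhere). Leaving those 5 genes out before scaling changed no call and no direction of a tested member. Mouse Zfp384 rose with each construct, from a mean of 22.8 CPM (normalised counts, scaled by TMM to a common library size) with the empty vector to 70.7 under full-length ZNF384, 173 under TAF15-ZNF384 and 481 under TCF3-ZNF384, so the groups also differ in the amount of transcript counted as Zfp384. The part of that amount in the ligand differences was not tested. The B-lineage factor Pax5 stood at 926 to 1142 CPM in the 8 libraries, and all 10 B-lineage markers passed the filter. Of these 10, 2 rose and none fell with full-length ZNF384, 2 rose and none fell with TAF15-ZNF384, and 5 rose and 2 fell with TCF3-ZNF384. Over all tested genes, 20.6%, 11.0% and 33.3% were called in these comparisons with the empty vector. The recombinase gene Rag1 went from 0.547 and 0.202 CPM with the empty vector to 0.138 and 0.218 under full-length ZNF384, 6.63 and 9.31 under TAF15-ZNF384 and 67.6 and 55.1 under TCF3-ZNF384. Dntt, the polymerase that adds bases at V(D)J junctions, went from 2.70 and 2.90 CPM to 9.49 and 18.0, 23.3 and 16.9, and 60.7 and 53.5 in the same order. With TCF3-ZNF384 the adaptor gene Blnk also rose, to 117 and 124 CPM from 40.4 and 43.3, and the surrogate light chain gene Igll1 fell, to 481 and 487 CPM from 720 and 725. The part of these marker shifts in the ligand differences was not tested. Of 10 other T and NK cell markers besides Lck, which also occurs in B-lineage cells, none exceeded 1.38 CPM in any library. Of the 3 tested, Lck, Cd3d and Klrb1c, 2 rose and none fell with TCF3-ZNF384, where 33.3% of all genes were called. Klrb1c, at 0.552 and 1.08 CPM there, would not have passed the filter without the TCF3-ZNF384 libraries. That count of 2 therefore rests in part on the filter. None of the 3 was called with full-length ZNF384 or TAF15-ZNF384. The summed level of 10 myeloid markers was 1.29 to 1.62 CPM with TCF3-ZNF384 and 0.0874 to 0.761 CPM in the other groups. Most of the TCF3-ZNF384 sum was Itgam, at 1.01 and 0.915 CPM there and at most 0.109 CPM elsewhere. No other myeloid marker exceeded 0.323 CPM, and 2 had no count in any library. The part of these levels in the TCF3-ZNF384 results was not tested. Apart from Alpl, at 379 to 503 CPM, no stromal or osteoblast marker exceeded 0.847 CPM. No erythroid or megakaryocyte marker exceeded 3.81 CPM. The deposited column names of the 6 libraries with a ZNF384 construct carry a suffix that those of the empty vector lack; whatever it stands for cannot be told apart from the group.

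The members Ltb, Tnf and Lta lie side by side on chromosome 17 within 10913 bases, and Tnfsf11 is the member with the most counts, so the sequences just upstream of these 4 genes are shown to let a reader compare them. The sequences come from RefSeq's promoter table (GRCm38.p6), in which 7 of the 9 members had an entry, and each has a single exact match in mm9, whose positions are given. They are written 5′ to 3′ on the gene's own strand and end at the annotated mm9 gene start. Capitals mark matches, on either strand, to a loose form of the NF-kB motif: GGG and CC with any 5 bases between them.
Tnfsf11 (chr14:78707851-78708100, minus strand): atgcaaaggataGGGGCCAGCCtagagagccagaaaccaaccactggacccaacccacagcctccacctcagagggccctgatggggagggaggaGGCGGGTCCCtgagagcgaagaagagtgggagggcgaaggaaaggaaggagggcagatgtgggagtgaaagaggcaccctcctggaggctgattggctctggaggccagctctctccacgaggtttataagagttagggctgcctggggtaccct
Ltb (chr17:35331202-35331383, plus strand): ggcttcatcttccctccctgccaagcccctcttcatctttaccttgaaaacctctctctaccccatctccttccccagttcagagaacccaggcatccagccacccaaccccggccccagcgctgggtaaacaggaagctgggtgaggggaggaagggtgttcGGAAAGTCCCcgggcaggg
Tnf (chr17:35338953-35339202, minus strand): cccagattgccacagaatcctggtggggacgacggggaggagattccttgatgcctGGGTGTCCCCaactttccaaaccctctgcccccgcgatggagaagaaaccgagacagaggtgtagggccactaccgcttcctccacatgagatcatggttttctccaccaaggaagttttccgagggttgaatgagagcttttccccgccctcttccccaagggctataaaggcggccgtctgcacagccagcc
Lta (chr17:35342297-35342546, minus strand): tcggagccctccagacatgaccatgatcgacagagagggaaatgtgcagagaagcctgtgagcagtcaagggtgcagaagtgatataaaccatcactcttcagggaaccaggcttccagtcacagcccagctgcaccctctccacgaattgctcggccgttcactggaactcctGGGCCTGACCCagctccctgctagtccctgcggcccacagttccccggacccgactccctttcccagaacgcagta
The loose form had 2 matches in Tnfsf11, 1 in the 182 bases of Ltb, 1 in Tnf and 2 overlapping ones in Lta, and 45.8% of all 32851 promoters of the table hold it in the 250 bases before the start, a longer stretch than that shown for Ltb. The Ltb match reads GGAAAGTCCC, a string that 0.14% of promoters hold on either strand. For the other marked strings the shares were 0.0944% in Tnf, 0.0883% and 0.137% in Lta and 0.189% and 0.256% in Tnfsf11. Few promoters hold any set string of 10 bases, so these shares do not mark the matches as unusual. The A-rich strings GAAAAA and CAAAAA, which resemble the known ZNF384 motif, occur in 19.7% and 14.3% of promoters and in none of these 4 windows. A search for the E-box CAGGTG (17.2% of promoters) and the AP-1 string TGACTCA (4.46%) found no match in the 4 stretches; the 68 bases of the RefSeq window that lie inside the annotated Ltb gene, not shown, hold 3 more matches of the loose form and 1 CAGGTG. A match is a string of letters and not a measured site.

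All 9 genes together made up 96.8 and 96.1 CPM under the empty vector, 117 and 91.0 under full-length ZNF384, 49.7 and 51.2 under TAF15-ZNF384 and 29.2 and 33.9 under TCF3-ZNF384. Tnfsf11 alone held 56.4% and 54.8% of the members' counts with the empty vector, against 20.5% and 24.0% with TCF3-ZNF384. The mix of ligand transcripts thus differed by construct. Tests are per gene: edgeR quasi-likelihood tests in a single fit of the 8 libraries, with Benjamini-Hochberg adjustment over all 12970 genes and a threshold of 0.05; an error after ± is a standard error of the log2 fold change.

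Against the empty vector, 1 of the 5 tested members other than Tnfsf4 rose and 2 fell with full-length ZNF384, where 20.6% of all tested genes were called (10.8% higher and 9.87% lower). With TAF15-ZNF384 none rose and 1 fell, against 11.0% of all genes (5.01% higher, 6.01% lower). With TCF3-ZNF384 none rose and 4 fell, against 33.3% of all genes (16.2% higher, 17.0% lower). These 3 comparisons share the same 2 empty vector libraries. Between constructs, TAF15-ZNF384 differed from full-length ZNF384 in 4 of them (1 higher, 3 lower), where 33.3% of all genes were called (15.4% higher, 17.9% lower), and TCF3-ZNF384 differed from it in 3, all lower, where 45.6% of all genes were called (22.2% higher, 23.4% lower). TCF3-ZNF384 had 3 of them lower and none higher than TAF15-ZNF384, where 10.1% of all genes were called (5.91% higher, 4.17% lower). The median log2 fold change of these 5 against the empty vector was 0.14 under full-length ZNF384, −0.48 under TAF15-ZNF384 and −1.02 under TCF3-ZNF384, beside medians of 0.03, 0.01 and 0.01 over all tested genes.

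**Figure D1:**
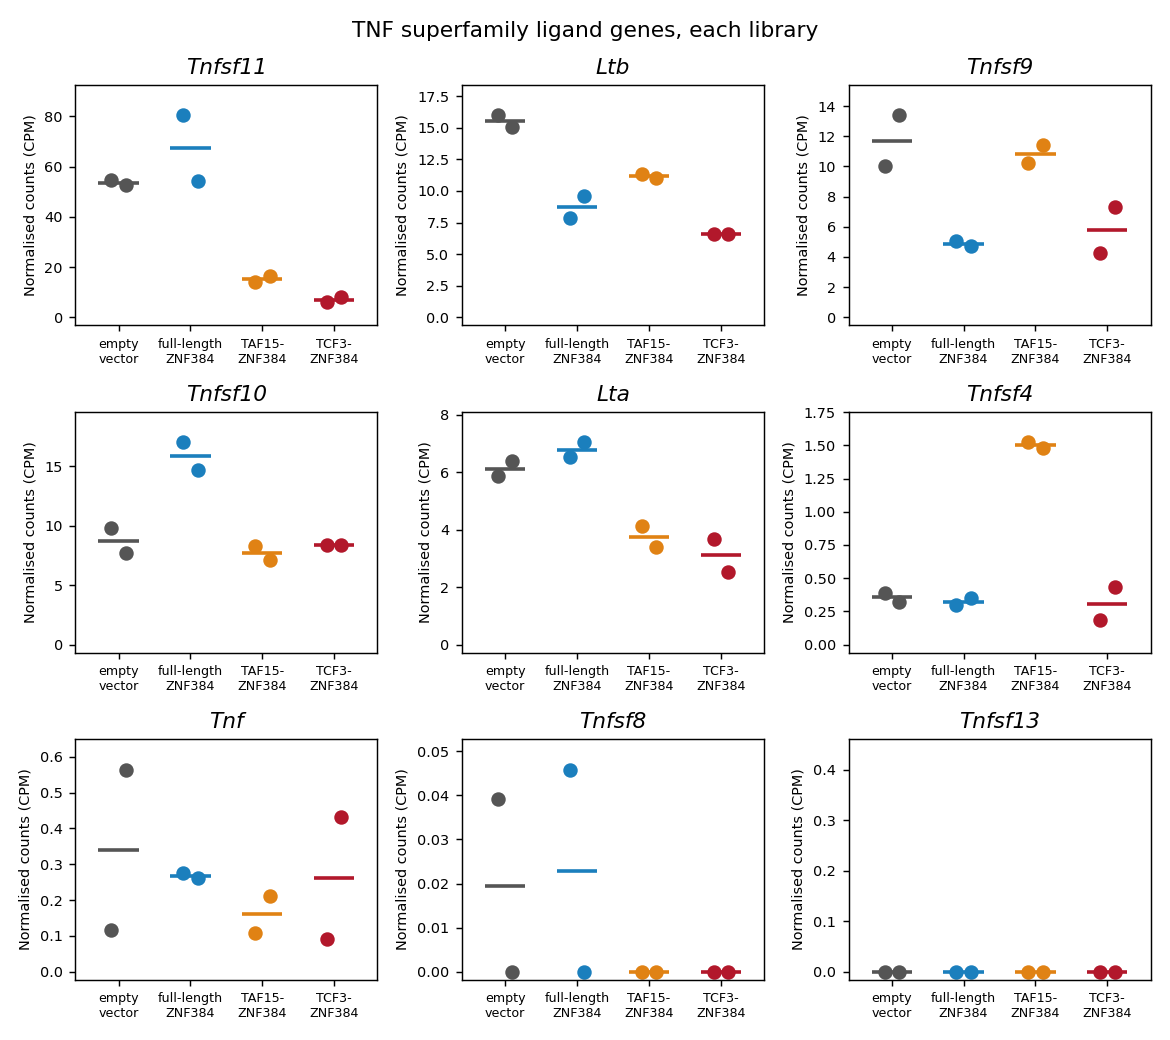
Level of each of the 9 ligand genes in each library (y axis: normalised counts, CPM, from 0, with its own scale for each gene) by construct; points are the 2 libraries of a group and the bar is their mean. Tnfsf11 falls from 54.6 and 52.7 CPM with the empty vector to 5.98 and 8.13 CPM with TCF3-ZNF384, Tnfsf4 is high only in the 2 TAF15-ZNF384 libraries, and Tnfsf13 is at 0 in all 8.

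Tnfsf11 (ENSMUSG00000022015.7, chr14:78677252-78707850 in mm9, minus strand) encodes RANKL, the ligand of RANK. It stood at 54.6 and 52.7 CPM under the empty vector, 80.4 and 54.4 under full-length ZNF384, 14.1 and 16.6 under TAF15-ZNF384 and 5.98 and 8.13 under TCF3-ZNF384. The fusion libraries lay below all 4 others and did not overlap each other, whereas the lower full-length ZNF384 library lay between the 2 empty vector libraries. With TAF15-ZNF384 it fell 3.49-fold (log2 fold change −1.80 ± 0.19, 95% interval −2.23 to −1.38, adjusted p = 0.000165). With TCF3-ZNF384 it fell 7.42-fold (−2.89 ± 0.20, interval −3.34 to −2.45, adjusted p = 1.00e-06). Both falls kept their call in all 17 alternative analyses, with log2 fold changes of −1.93 to −1.70 and −3.17 to −2.72.

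Relative to full-length ZNF384 the same gene was 4.40-fold lower with TAF15-ZNF384 (log2 fold change −2.14 ± 0.19, adjusted p = 1.49e-05) and 9.36-fold lower with TCF3-ZNF384 (−3.23 ± 0.20, adjusted p = 3.24e-07). The fusions differed from each other by 2.13-fold, TCF3-ZNF384 being the lower (−1.09 ± 0.23, adjusted p = 0.0109). This difference between fusions was lost without TAF15-ZNF384 replicate 2 (−0.97, adjusted p = 0.126) and without TCF3-ZNF384 replicate 1 (−0.92, adjusted p = 0.0716). Full-length ZNF384 itself gave a log2 fold change of 0.33 ± 0.16 against the empty vector, with an interval of −0.02 to 0.69 and an adjusted p of 0.174. Without full-length ZNF384 replicate 2 that difference passed the threshold (0.57, adjusted p = 0.000778), since replicate 1 was the high library; with no filter on low counts it also passed (0.34, adjusted p = 0.0275). Tnfsf11 therefore had the order TCF3-ZNF384, TAF15-ZNF384, then the empty vector and full-length ZNF384, and the difference between the latter 2 missed the threshold.

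The annotated neighbours of Tnfsf11 are far away. Epsti1, 279277 bases to one side, rose with TCF3-ZNF384 (log2 fold change 0.54 ± 0.13, adjusted p = 0.00608) and gave −0.15 ± 0.14 with TAF15-ZNF384 (adjusted p = 0.538). Akap11, 184203 bases to the other side, fell with TCF3-ZNF384 by 0.27 ± 0.10 on the log2 scale (adjusted p = 0.0411) and gave −0.18 ± 0.10 with TAF15-ZNF384 (adjusted p = 0.246). The receptor RANK (Tnfrsf11a) had 3 counts over all 8 libraries, and the decoy receptor osteoprotegerin (Tnfrsf11b) had 0.

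Ltb (ENSMUSG00000024399.5, chr17:35331384-35333265, plus strand) encodes lymphotoxin beta, the membrane anchor of the heterotrimer that binds the lymphotoxin beta receptor. Its level was 16.0 and 15.0 CPM with the empty vector, 7.86 and 9.57 under full-length ZNF384, 11.3 and 11.0 under TAF15-ZNF384 and 6.63 and 6.62 under TCF3-ZNF384. Every library with a ZNF384 construct lay below both empty vector libraries, and those of TCF3-ZNF384 were the lowest. Ltb fell with full-length ZNF384 (log2 fold change −0.84 ± 0.14, 1.80-fold, adjusted p = 0.00079) and with TCF3-ZNF384 (−1.23 ± 0.15, 2.34-fold, adjusted p = 3.42e-05). For TAF15-ZNF384 the value was −0.48 ± 0.15 with an interval of −0.80 to −0.15, and the adjusted p of 0.0570 missed the threshold. That difference passed in the fit of the 2 groups alone (−0.47, adjusted p = 0.0207), with no filter (−0.50, adjusted p = 0.0381) and without full-length ZNF384 replicate 1 or 2 (adjusted p = 0.0216 and 0.0223). TCF3-ZNF384 was lower than TAF15-ZNF384 (−0.75 ± 0.17, adjusted p = 0.0109), a call that was lost on leaving out any of the 4 libraries compared (adjusted p = 0.0693 to 0.0818, log2 fold changes −0.77 to −0.73).

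Lta (ENSMUSG00000024402.5, chr17:35340110-35342296, minus strand) encodes lymphotoxin alpha, which is secreted as a homotrimer that binds the TNF receptors or joins lymphotoxin beta on the surface. It was at 5.87 and 6.37 CPM with the empty vector, 6.51 and 7.03 under full-length ZNF384, 4.13 and 3.39 under TAF15-ZNF384 and 3.68 and 2.53 under TCF3-ZNF384. The 4 fusion libraries lay below the other 4, and the libraries of the 2 fusions overlapped. Against the empty vector Lta fell with TCF3-ZNF384 (log2 fold change −1.02 ± 0.22, 2.03-fold, adjusted p = 0.00297), a call that was lost without TCF3-ZNF384 replicate 2 (−0.74, adjusted p = 0.0783). The value for TAF15-ZNF384 was −0.70 ± 0.23 (interval −1.20 to −0.21, adjusted p = 0.0641); it passed in the fit of the 2 groups alone (−0.70, adjusted p = 0.0329), with no filter (−0.73, adjusted p = 0.0364) and without full-length ZNF384 replicate 1 or 2 (adjusted p = 0.0404 and 0.0388). Full-length ZNF384 gave 0.14 ± 0.19 (interval −0.26 to 0.54, adjusted p = 0.631), where Ltb, its neighbour and partner, had fallen. Against full-length ZNF384, Lta was lower with TAF15-ZNF384 (−0.85 ± 0.23, adjusted p = 0.0110; −0.72 and 0.0971 without TAF15-ZNF384 replicate 2) and with TCF3-ZNF384 (−1.16 ± 0.22, adjusted p = 0.000678).

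Tnf (ENSMUSG00000024401.8, chr17:35336326-35338952, minus strand), which encodes the inflammatory cytokine TNF, lies between Ltb and Lta and was almost silent. Its counts were 3 and 14 with the empty vector, 12 and 6 under full-length ZNF384, 1 and 2 under TAF15-ZNF384 and 1 and 8 under TCF3-ZNF384, or 47 in all. The ratio of rates against the empty vector was 0.802 with full-length ZNF384 (95% exact counting interval 0.390 to 1.66), 0.477 with TAF15-ZNF384 (0.0895 to 1.65) and 0.906 with TCF3-ZNF384 (0.356 to 2.15). A difference in Tnf was not detectable at this depth, and the 2 empty vector libraries already spanned 0.117 to 0.565 CPM. The intervals cover counting error only. Beyond the cluster, 14824 bases from Lta, Nfkbil1 fell with full-length ZNF384 (log2 fold change −0.44 ± 0.13, adjusted p = 0.0237) and with TCF3-ZNF384 (−0.69 ± 0.13, adjusted p = 0.00145); with TAF15-ZNF384 it gave −0.43 ± 0.14 (adjusted p = 0.0599). On the other flank Lst1, 6000 bases from Ltb, was called in none of the 6 comparisons.

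Tnfsf9 (ENSMUSG00000035678.7, chr17:57244808-57247180, plus strand) encodes 4-1BB ligand, which costimulates T cells through 4-1BB. The libraries held 10.0 and 13.4 CPM with the empty vector, 5.04 and 4.72 under full-length ZNF384, 10.2 and 11.4 under TAF15-ZNF384 and 4.23 and 7.32 under TCF3-ZNF384. Both TAF15-ZNF384 libraries lay inside the range of the empty vector, and those of the other 2 constructs lay below it. It fell with full-length ZNF384 (log2 fold change −1.25 ± 0.21, 2.38-fold, adjusted p = 0.000884) and with TCF3-ZNF384 (−0.97 ± 0.22, 1.95-fold, adjusted p = 0.00403). With TAF15-ZNF384 the change was −0.11 ± 0.22, with an interval of −0.58 to 0.35 and an adjusted p of 0.786. The constructs themselves differed: TAF15-ZNF384 was 2.21-fold above full-length ZNF384 (1.14 ± 0.23, adjusted p = 0.00184), and TCF3-ZNF384 was below TAF15-ZNF384 (−0.85 ± 0.24, adjusted p = 0.0357). The latter call was lost without either TAF15-ZNF384 library or TCF3-ZNF384 replicate 1 (adjusted p = 0.116 to 0.247), and without TCF3-ZNF384 replicate 1, the lower library, the difference was −0.56.

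Tnfsf4 (ENSMUSG00000026700.3, chr1:163325581-163348337, plus strand) encodes OX40 ligand, another T cell costimulator. It was near the limit of detection, at 0.391 and 0.323 CPM with the empty vector, 0.298 and 0.350 under full-length ZNF384, 1.52 and 1.48 under TAF15-ZNF384 and 0.184 and 0.431 under TCF3-ZNF384. The 2 TAF15-ZNF384 libraries, with 14 counts each, stood above the other 6, which held 2 to 13 counts. Since only these 2 libraries brought the gene through the filter, no test of its difference from the other groups is given; the log2 fold change of TAF15-ZNF384 against the empty vector was 2.05 ± 0.60. For full-length ZNF384 and TCF3-ZNF384 against the empty vector the values were −0.16 ± 0.62 and −0.11 ± 0.70, with intervals of −1.48 to 1.17 and −1.61 to 1.38 that leave the direction unresolved. Tnfsf8 (ENSMUSG00000028362.2, chr4:63492342-63522381, minus strand), which encodes CD30 ligand, had 1 count in an empty vector library and 2 in a full-length ZNF384 library and 0 in the other 6. A count of 0 allows up to 3 counts, or 0.326 CPM in the shallowest library.

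Tnfsf10 (ENSMUSG00000039304.5, chr3:27215950-27241349, plus strand) encodes TRAIL, which can kill cells through a death-domain receptor. It stood at 9.78 and 7.70 CPM with the empty vector, 17.0 and 14.7 under full-length ZNF384, 8.26 and 7.09 under TAF15-ZNF384 and 8.38 and 8.40 under TCF3-ZNF384. The 2 full-length ZNF384 libraries were above all others, and the other 3 groups occupied 1 range. Tnfsf10 rose with full-length ZNF384 (log2 fold change 0.86 ± 0.15, interval 0.54 to 1.18, 1.82-fold, adjusted p = 0.00119). Its changes with TAF15-ZNF384 and TCF3-ZNF384 were −0.19 ± 0.18 and −0.06 ± 0.17 (intervals −0.57 to 0.20 and −0.42 to 0.30, adjusted p = 0.544 and 0.817). Against full-length ZNF384 both fusions were lower, by −1.05 ± 0.17 with TAF15-ZNF384 (adjusted p = 0.000446) and −0.92 ± 0.16 with TCF3-ZNF384 (adjusted p = 0.000363). Between the fusions the difference was 0.13 ± 0.19 (interval −0.28 to 0.53).

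Tnfsf13 (ENSMUSG00000089669.1, chr11:69496348-69499286, minus strand) encodes APRIL, a survival factor for plasma cells and B cells. It had 0 counts in all 8 libraries. In the mm9 annotation used here, 983 of its 1637 exon bases are shared with exons of other genes, and how the authors counted such reads is not given in the sources used here. The adjacent Tnfsf12 had 4 counts in all, and the read-through gene Tnfsfm13 had 0. The other 8 members share no exon base with another annotated gene.

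**Figure D2:**
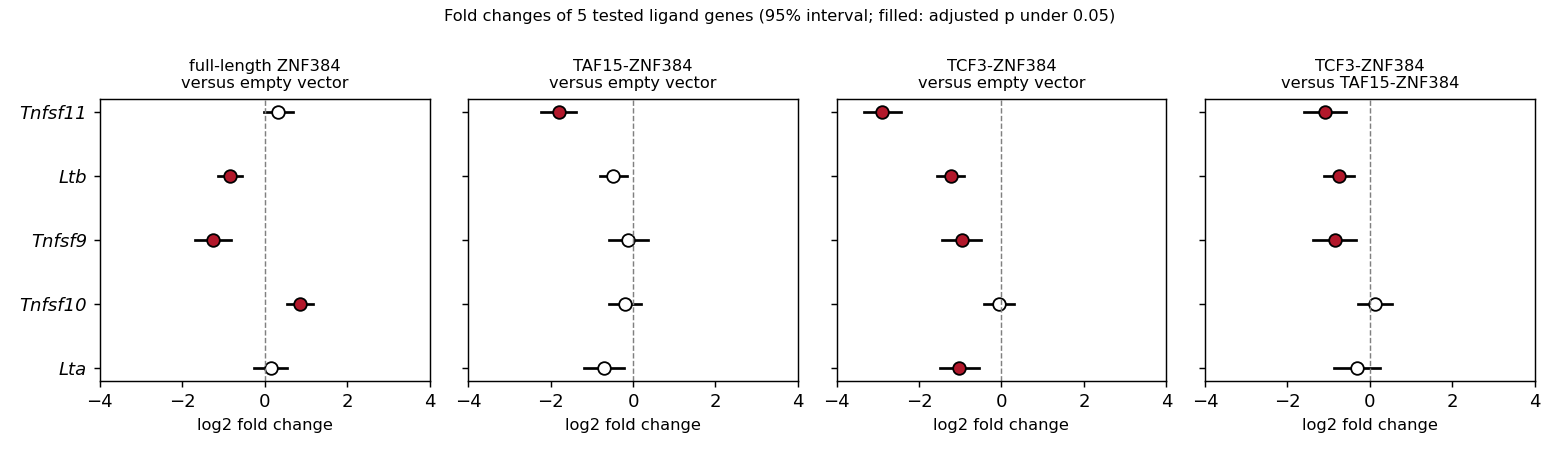
Log2 fold change of the 5 tested ligand genes other than Tnfsf4 (x axis) in 4 comparisons; points are edgeR estimates, lines their 95% intervals, and filled points have an adjusted p under 0.05. Tnfsf11 lies at −1.80 with TAF15-ZNF384 and −2.89 with TCF3-ZNF384, and Tnfsf10 is above 0 with full-length ZNF384 at 0.86.

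To compare levels between genes, CPM was divided by the length of each gene's merged exons in kilobases (RPKM). With the empty vector Tnfsf11 was the most abundant member at a mean of 24.0 RPKM, followed by Ltb at 10.2, Tnfsf9 at 9.51, Lta at 4.42 and Tnfsf10 at 1.66, with Tnfsf4 at 0.223 and Tnf at 0.208. The ranges of Ltb (9.92 to 10.6 RPKM) and Tnfsf9 (8.14 to 10.9 RPKM) overlapped, as did those of Tnfsf4 and Tnf. With full-length ZNF384 Tnfsf11 led at 30.1 RPKM and Ltb, Lta and Tnfsf9 followed at 5.75, 4.90 and 3.97. In the fusion libraries Tnfsf11 no longer led: with TAF15-ZNF384 Tnfsf9 stood at 8.80 RPKM, Ltb at 7.36 and Tnfsf11 at 6.87. With TCF3-ZNF384 Tnfsf9 stood at 4.70 RPKM, Ltb at 4.37, Tnfsf11 at 3.16 and Lta at 2.25. The ranges of Ltb and Tnfsf11 overlapped with TAF15-ZNF384, and those of Tnfsf9 overlapped both Ltb and Tnfsf11 with TCF3-ZNF384.

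**Figure D3:**
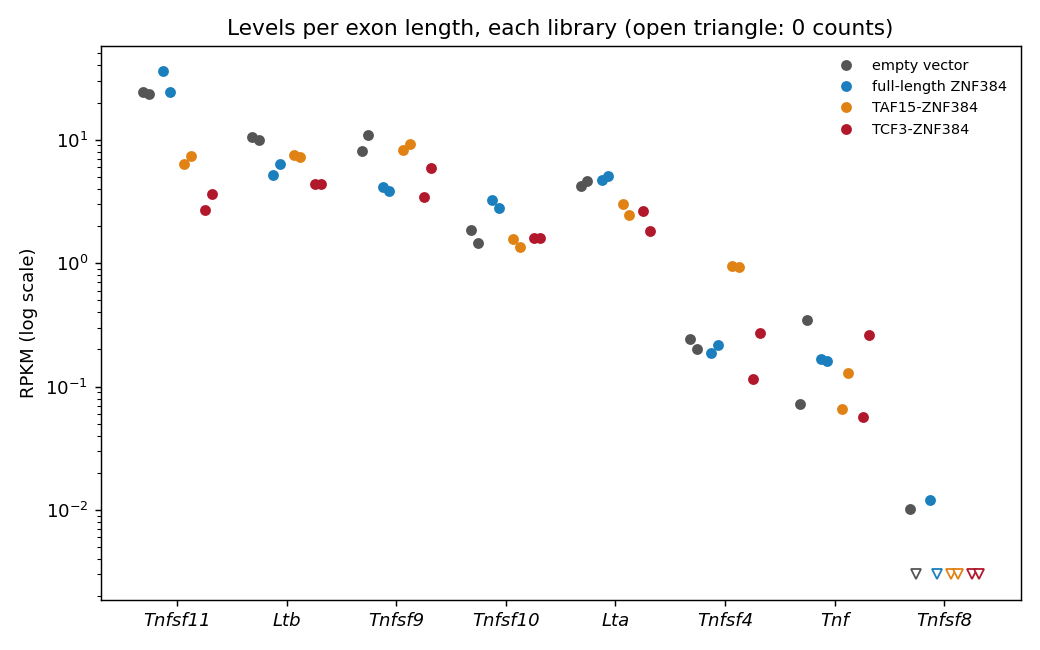
Level per exon length of 8 ligand genes in each library (y axis: RPKM, log scale), coloured by construct; open triangles mark libraries with 0 counts, and Tnfsf13, at 0 throughout, is left out. Tnfsf11 spans from 2.68 RPKM in a TCF3-ZNF384 library to 36.0 RPKM in a full-length ZNF384 library, while Tnf stays below 0.35 RPKM.

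The receptors of these ligands were mostly absent or low. Of 13 listed receptor genes 7 were tested; none was called with full-length ZNF384, 1 fell with TAF15-ZNF384 and 2 fell with TCF3-ZNF384. The median log2 fold changes were −0.07, −0.24 and −0.29 in that order. The shares called over all tested genes were 20.6%, 11.0% and 33.3%. Tnfrsf1b, the TNF and lymphotoxin alpha receptor TNFR2, was at 52.3 and 47.0 CPM with the empty vector, fell with TAF15-ZNF384 (log2 fold change −0.40 ± 0.12, adjusted p = 0.0396) and fell with TCF3-ZNF384 (−0.63 ± 0.11, adjusted p = 0.000739). The number of receptors called with TAF15-ZNF384 became 0 with the DESeq2 Wald test and without any 1 empty vector, TAF15-ZNF384 or TCF3-ZNF384 library, and 2 without either full-length ZNF384 library. Tnfrsf13b, which encodes TACI, a receptor for APRIL and BAFF on B cells, fell with TCF3-ZNF384 from a mean of 49.5 to 31.1 CPM (−0.67 ± 0.13, adjusted p = 0.00154). The lymphotoxin beta receptor gene Ltbr had 28 counts in all, and the TRAIL receptor gene Tnfrsf10b had 105; these 2 were named after their values were seen.

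Among 15 other TNF receptor superfamily genes 13 were tested: 4 fell and none rose with full-length ZNF384, 1 fell with TAF15-ZNF384, and 3 rose and 4 fell with TCF3-ZNF384 (medians −0.13, −0.03 and −0.61 on the log2 scale). In the same order, 20.6%, 11.0% and 33.3% of all tested genes were called. With full-length ZNF384 Cd40, the costimulatory receptor of B cells, went from 0.704 and 0.887 CPM to 0 and 0.0437. The nerve growth factor receptor gene Ngfr went from 1.80 and 1.77 CPM to 0.0229 and 0.0437 (adjusted p = 0.000121). Both rest on 1 or 2 counts in the lower group, so no fold is given. Without the empty vector libraries Cd40 would not have passed the filter, so no test of it is given, but the counts of this list include it. Tnfrsf12a, the receptor of TWEAK, fell there from a mean of 3.99 to 0.740 CPM (log2 fold change −2.39 ± 0.35, adjusted p = 0.000391). With TCF3-ZNF384 Relt fell from 52.6 to 24.7 CPM (−1.08 ± 0.13, adjusted p = 2.97e-05), and the ectodysplasin receptor gene Eda2r rose from 0.916 to 2.85 CPM (1.60 ± 0.47, adjusted p = 0.017). The number of these receptors called with TCF3-ZNF384 dropped from 7 to 1 without TCF3-ZNF384 replicate 1, to 2 without empty vector replicate 2 and to 3 without TCF3-ZNF384 replicate 2 or empty vector replicate 1. The 1 called with TAF15-ZNF384 became 0 without empty vector replicate 2 or TAF15-ZNF384 replicate 1, and 3 without either full-length ZNF384 library.

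Adaptors and death-pathway genes were all expressed, 24 of 24 tested. With full-length ZNF384 1 rose and none fell, with TAF15-ZNF384 1 rose and 2 fell, and with TCF3-ZNF384 5 rose and 4 fell; the median log2 fold changes were −0.04, 0.01 and 0.03. Of all tested genes, 20.6%, 11.0% and 33.3% were called in that order. Birc3, an inhibitor of apoptosis that ubiquitinates RIPK1, rose from a mean of 41.9 to 96.2 CPM with TCF3-ZNF384 (1.20 ± 0.10, adjusted p = 6.48e-07) and to 54.3 CPM with TAF15-ZNF384 (0.37 ± 0.10, adjusted p = 0.0302). Cflar, which encodes the caspase-8 inhibitor cFLIP, fell from 86.1 to 49.9 CPM with TCF3-ZNF384 (−0.79 ± 0.09, adjusted p = 2.68e-05) and to 68.1 CPM with TAF15-ZNF384 (−0.34 ± 0.10, adjusted p = 0.036). Map3k14, the kinase NIK of the alternative NF-kB pathway, rose with TCF3-ZNF384 (0.49 ± 0.10, adjusted p = 0.00217), and the linear ubiquitin protease gene Otulin fell with both fusions (−0.42 ± 0.10 with TAF15-ZNF384, −0.55 ± 0.09 with TCF3-ZNF384, adjusted p = 0.0131 and 0.000548). TCF3-ZNF384 also stood above TAF15-ZNF384 for Birc3 (0.82 ± 0.10, adjusted p = 0.000126) and below it for Cflar (−0.45 ± 0.10, adjusted p = 0.00908). The count of 9 with TCF3-ZNF384 ranged from 4 (without TCF3-ZNF384 replicate 1) to 13 (without full-length ZNF384 replicate 1), and was 5 without TCF3-ZNF384 replicate 2 or empty vector replicate 1. That of 3 with TAF15-ZNF384 became 0 without any 1 of the 4 libraries compared, 1 without either TCF3-ZNF384 library, and 5 in the fit of the 2 groups alone or without either full-length ZNF384 library. That of 1 with full-length ZNF384 became 0 with the DESeq2 Wald test, in the fit of the 2 groups alone and without either empty vector or either TCF3-ZNF384 library, and 2 and 4 without full-length ZNF384 replicates 1 and 2.

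Of 13 NF-kB subunits and feedback inhibitors 12 were tested, and 8 of them fell and none rose with full-length ZNF384, where 9.87% of all genes were lower. The median log2 fold change of the 12 was −1.12. Nfkbia, the inhibitor IkB-alpha, went from 350 and 400 CPM to 95.7 and 112 (−1.85 ± 0.13, adjusted p = 1.79e-06), the subunit gene Rel from a mean of 83.0 to 34.9 CPM (−1.25 ± 0.09, adjusted p = 1.85e-06), and Nfkb2 from 16.0 to 4.94 CPM (−1.69 ± 0.14, adjusted p = 3.29e-06). The summed level of the 13 genes was 611 to 699 CPM with the empty vector, 224 to 256 under full-length ZNF384, 653 to 729 under TAF15-ZNF384 and 558 to 685 under TCF3-ZNF384. Nfkbia held the largest part of this sum in each group. Nfkb1, Rela, Nfkbib and Tnip1 were not called with full-length ZNF384. In the sum, the full-length ZNF384 libraries stood apart from all others. Ltb and Tnfsf9 fell and Tnfsf10 rose in the same libraries; the part of the NF-kB genes in those changes was not tested. With TAF15-ZNF384 2 of the 12 rose and 1 fell, where 11.0% of all genes were called, and with TCF3-ZNF384 3 rose and 2 fell, where 33.3% were called (medians 0.27 and 0.25). Rel fell with both (−0.86 ± 0.10, adjusted p = 8.23e-05, and −0.40 ± 0.09, adjusted p = 0.00445), Nfkb2 rose with both (0.50 ± 0.13, adjusted p = 0.0266, and 0.56 ± 0.13, adjusted p = 0.00393), and Relb rose with TCF3-ZNF384 (0.88 ± 0.19, adjusted p = 0.00341). Against full-length ZNF384, 9 of the 12 were higher with TAF15-ZNF384 and 12 with TCF3-ZNF384, and none was lower. Over all tested genes, 15.4% were higher in the first of these comparisons and 22.2% in the second. The 8 called with full-length ZNF384 became 6 to 10 over the alternatives; the 3 called with TAF15-ZNF384 became 1 without empty vector replicate 1 or TAF15-ZNF384 replicate 1, and the 5 called with TCF3-ZNF384 became 3 without empty vector replicate 2 or TCF3-ZNF384 replicate 2.

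The last list held proteases that shed ligands from the surface and factors that destroy their mRNA, 9 of 12 tested. With full-length ZNF384 4 fell and none rose, where 9.87% of all tested genes were lower and 10.8% higher. The 4 were all mRNA decay factors. Zfp36, which encodes tristetraprolin, the destabiliser of Tnf mRNA, fell from a mean of 232 to 97.9 CPM (log2 fold change −1.24 ± 0.15, adjusted p = 0.00011), Zfp36l1 from 161 to 70.2 CPM (−1.20 ± 0.15, adjusted p = 0.000217) and the RNase gene Zc3h12a from 42.9 to 18.7 CPM (−1.22 ± 0.16, adjusted p = 0.000224). With TAF15-ZNF384, where 11.0% of all tested genes were called, 1 fell, the sheddase gene Adam10 (−0.40 ± 0.10, adjusted p = 0.0192). Its call was lost on leaving out any of the 4 libraries compared. With TCF3-ZNF384 4 rose and 1 fell, where 33.3% of all tested genes were called. Among the 4 were the proprotein convertase gene Furin (1.03 ± 0.18, adjusted p = 0.000543), Rhbdf2, the partner of the TNF sheddase (0.81 ± 0.17, adjusted p = 0.00204), and Zfp36l1, which rose here (0.53 ± 0.15, adjusted p = 0.0174). The medians of the list were −0.05, 0.02 and 0.16 with the 3 constructs, and the 5 genes called with TCF3-ZNF384 became 2 without TCF3-ZNF384 replicate 2, 3 without TCF3-ZNF384 replicate 1 or either empty vector library and 7 without full-length ZNF384 replicate 1.

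**Figure D4:**
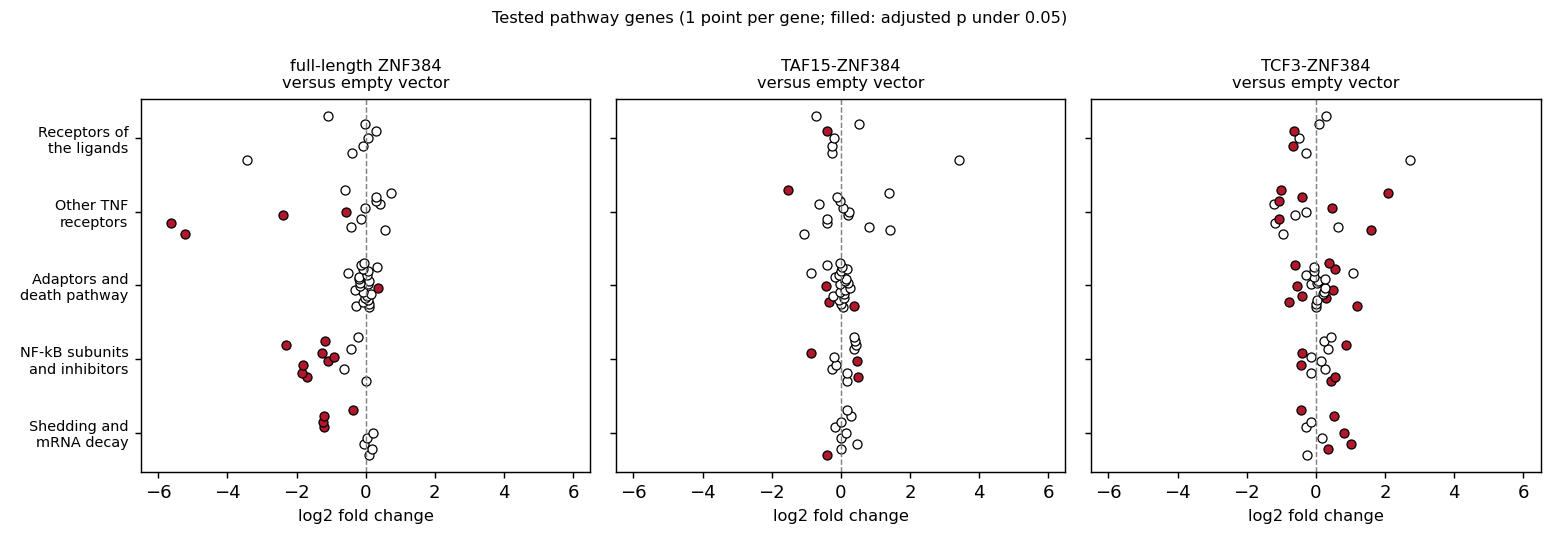
Log2 fold change against the empty vector (x axis) of every tested gene in 5 lists of TNF receptor pathway genes (rows), 1 panel per construct; filled points have an adjusted p under 0.05 and the height within a row carries no meaning. With full-length ZNF384, 8 of 12 NF-kB subunits and inhibitors are filled and below 0, and with TCF3-ZNF384 5 adaptors are filled above 0 and 4 below. Over all tested genes, 9.87% were lower with full-length ZNF384 and 33.3% were called with TCF3-ZNF384.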

How the data were processed

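Gene expression was measured by RNA-seq of stranded total RNA libraries in 8 samples, 4 groups of 2. The deposited values are raw counts per gene, made by the authors with HTSeq 0.6.1p1 on mm9, per the submitters' processing notes. The aligner, the gene annotation and the strand setting are not given in the sources used here. How reads on overlapping genes were counted, or whether they were lost, is therefore not known. Samples were grouped by their labels. Genes were filtered with filterByExpr, scaled by TMM and tested with edgeR 4.0.16 (quasi-likelihood, robust, R 4.3.3) in a fit of all 8 libraries, with Benjamini-Hochberg adjustment over 12970 genes at 0.05. The script was tested on simulated data. CPM and RPKM were computed from the counts, the latter with merged exon lengths of GENCODE mouse gene models on mm9. Totals of 9381954 to 41483660 counts set the precision, and 3 counts in a library correspond to 0.0688 to 0.326 CPM. Replicates correlated at 0.988 to 0.994 (log2 CPM, across genes) and differed beyond sampling noise. The members and lists were chosen with earlier results of these data known. Named pathway genes are up to 3 per direction, list and comparison with the smallest adjusted p, and not all of them are printed. Alternatives were DESeq2 1.42.0 as test and as size factors, other filters, fits of 2 groups, a replicate block, omission of 5 non-coding genes, thinned counts and omission of each library.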

Additional observations from a re-analysis of the deposited data

How the results depend on the processing

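Tests were repeated under 17 alternatives (15 or 16 for Tnfsf4, which some of them gave no value for), of which 8 leave out a library, in which case the lone library of a group is taken to vary like the other groups. The falls of Tnfsf11 with both fusions, of Ltb and Tnfsf9 with full-length ZNF384 and with TCF3-ZNF384, and the rise of Tnfsf10 with full-length ZNF384, kept direction and call in all 17. Of these, the fall of Tnfsf9 with TCF3-ZNF384 came closest to losing its call, with log2 fold changes of −1.47 to −0.67. For TAF15-ZNF384 against the empty vector, Tnfsf11 alone of the 5 members other than Tnfsf4 was called with the DESeq2 Wald test. The same held with a minimum of 2 CPM in 2 libraries and with libraries thinned to the shallowest. With only the 2 groups compared, Ltb and Lta passed as well, and 2746 genes were called there and 2548 between the fusions. In that thinned draw Tnfsf10 reversed with TCF3-ZNF384 against the empty vector (0.19, not called). In a second draw, added after seeing the data, Tnfsf4 reversed, to a log2 fold change of 0.64 for full-length ZNF384 and 0.49 for TCF3-ZNF384 against the empty vector and −0.16 for TCF3-ZNF384 against full-length ZNF384; none of these was called.

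Leaving out a library in turn, the genes called ranged from 1064 (without empty vector replicate 2) to 3814 for full-length ZNF384 against the empty vector, from 404 (without TAF15-ZNF384 replicate 1) to 2783 (without full-length ZNF384 replicate 1) for TAF15-ZNF384, and from 2501 (without TCF3-ZNF384 replicate 2) to 5372 for TCF3-ZNF384. They ranged from 2158 (without TAF15-ZNF384 replicate 1) to 5333 for TAF15-ZNF384 and from 3866 (without TCF3-ZNF384 replicate 2) to 6558 for TCF3-ZNF384 against full-length ZNF384, and from 371 (without TAF15-ZNF384 replicate 2) to 2361 (without full-length ZNF384 replicate 2) between the fusions. Members called, Tnfsf4 included, ranged from 1 to 4 for TAF15-ZNF384 against the empty vector, from 3 to 6 for TAF15-ZNF384 against full-length ZNF384, and from 0 (without TAF15-ZNF384 replicate 2 or TCF3-ZNF384 replicate 1) to 4 between the fusions. Uncalled log2 fold changes crossed 0 for Tnfsf10 (−0.22 to 0.12) and Tnfsf4 (−0.94 to 0.27) with TCF3-ZNF384 and Tnfsf9 (−0.31 to 0.11) with TAF15-ZNF384 against the empty vector, and, for TCF3-ZNF384 against full-length ZNF384, for Tnfsf4 (−0.77 to 0.44) and Tnfsf9 (−0.20 to 0.60). The cause of these shifts was not tested. The ranges of members called include Tnfsf4, which passed the filter only through the TAF15-ZNF384 libraries. Its part in those ranges is therefore not evidence of a difference. Nor can the ranges be set beside the main counts of members, which leave Tnfsf4 out.

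The replicate numbers, taken from the titles, are uncertain: the deposited column names number the 6 construct libraries differently and the empty vector libraries not at all. They were not used to pair the samples in the main fit. Deviations of same-numbered libraries correlated at −0.0018 to 0.226, which cannot settle whether such libraries belong together. With the replicate block, 2999, 1825 and 4655 genes were called in the comparisons of the 3 constructs with the empty vector, in the order above. The main fit called 2675, 1430 and 4317. No call of a member other than Tnfsf4 changed with the block. Depth limits Tnf, Tnfsf4 and Tnfsf8, which held at most 14 counts in a library. The part of depth in the 0 counts of Tnfsf13, which shares exon bases with other genes, was not tested.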

Other observations

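Of 9 other TNF superfamily ligand genes in the table, none passed the expression filter and 6 had no count in any library, among them Fasl, Cd40lg and Cd70. Tnfsf13b, which encodes the B cell survival factor BAFF, had 44 counts in all, at 0.235 and 0.242 CPM with the empty vector, 0.206 and 0.218 under full-length ZNF384, 0.870 and 0.423 under TAF15-ZNF384 and 0.184 and 0.215 under TCF3-ZNF384. Tnfsf12 had 4 counts and Tnfsf18, which neighbours Tnfsf4, had 1.

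Genes whose level followed that of a member were described by Pearson's r of log2(CPM + 0.5) over the 8 libraries, among up to 8581 tested genes with a mean of at least 5 CPM. The points share their libraries and their depth, and no p is given. Tnfsf11 was followed most closely by Cst7, which encodes the protease inhibitor cystatin F (r = 0.996), with mean levels of 24.8 CPM under full-length ZNF384, 7.01 CPM under TAF15-ZNF384 and 2.78 CPM under TCF3-ZNF384. The next were the mismatch repair gene Pms1 and the ferredoxin reductase gene Fdxr (r = 0.990 for both). For Lta they were Tbxa2r (r = 0.989), the adhesion receptor gene Cd2 (r = 0.974) and Ift22 (r = 0.973). Cd2 stood at means of 11.2 CPM under the empty vector, 13.8 under full-length ZNF384, 3.39 under TAF15-ZNF384 and 3.23 under TCF3-ZNF384. For Ltb they were Pmepa1 (r = 0.982), Sh2d3c (r = 0.980) and the RNase gene Zc3h12d (r = 0.976), the last at 122, 52.1, 60.8 and 29.0 CPM in the same order. Tnfsf9 was followed by Hist3h2bb-ps, Creg1 and Bcl7c (r = 0.981, 0.980 and 0.979), and Tnfsf10 by Foxk1, Bag2 and Tnpo3 (r = 0.989, 0.989 and 0.987), Bag2 at 30.3, 59.5, 25.7 and 30.3 CPM in that order. For Tnfsf4, whose own values rest on 77 counts, they were Syde1, Tmprss3 and Urb2 (r = 0.976, 0.970 and 0.954).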
